A study of Mus musculus with 41 samples.

Results

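Oxidized forms of methylcytosine were compared at the Il4 locus between Th2 cells that lacked TDG through CD4-Cre and their WT counterparts. The members are the 2 pyridine borane (PB-seq) samples whose titles carry CD4cre, 1 TDG-KO library and 1 WT library, out of 41 samples in the series, of which 6 were PB-seq samples. The series followed cytosine modification by amplicon sequencing in naïve CD4+ T cells and in Th2 cells made from them, with and without the TET enzymes or TDG. Both libraries came from C57BL/6 mice, adult per the study's methods and with no age in the labels, with genotype labels of Tdg-KO and wild type and no treatment. T cells from spleen and lymph nodes were stimulated for 2 days with anti-CD3 and anti-CD28 under 1000 U/ml IL-4 and anti-IFN-γ and were then expanded for 3 days in 20 U/ml IL-2, the first cycle of Th2 differentiation. These days follow the labels, and the study's methods give a longer time in IL-2. In the study's mice the Cd4 promoter drove Cre, so that floxed Tdg alleles were deleted in the T cell lineage during thymic development. The 4 other PB-seq samples, WT and TDG iKO, came from the same culture scheme but with ERT2-Cre, an inducible Cre that deletes Tdg only after tamoxifen. The amplicons hold no sequence of Tdg, so its deletion could not be checked in these data.

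TET enzymes oxidize 5mC stepwise to 5hmC, 5fC and 5caC, and TDG is the DNA glycosylase that cuts 5fC and 5caC out of DNA so that base excision repair can put an unmodified C in their place. Where TDG is lost, the final oxidation products remain in DNA, and their sites mark where TET enzymes have acted. Il4 encodes the signature cytokine of Th2 cells. CNS1 is a conserved regulatory region between Il13 and Il4, and HSII is a nuclease-hypersensitive enhancer inside Il4. The study places a binding site of GATA3, the lineage factor of Th2 cells, in intron 1, with its peak near CpG27 to CpG29. At the 3′ region of HSII, the part read here, the study saw no evident GATA3 binding.

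Pyridine borane turns 5fC and 5caC into a base that is read as T and leaves C, 5mC and 5hmC as C. The extraction text of the labels names bisulfite for every sample, and the PB-seq assignment follows the sample titles, the series design and the study's methods. Cytosines outside CpG, which bisulfite would turn into T, averaged a T level of 0.315% in the WT library and 0.299% in the TDG-KO library, so these libraries were not bisulfite-converted. The 5fC/5caC level of a cytosine is the percentage of T after C reads are multiplied by 0.5, the weight given in the study's methods. The libraries covered 8 amplicons in 6 regions of chr11:53427375-53440800 (mm9), with 47 CpGs numbered along the direction of Il4 transcription, which runs on the minus strand. Il4 itself spans chr11:53416484-53432171. Both strands of a CpG were read, which gives 94 CpG cytosines. Median depth was 10760 reads per CpG cytosine in WT cells and 6632 in TDG-KO cells, and all 94 had at least 100 reads in both libraries. CpG9 to CpG13, the middle CNS1 amplicon, had only 690 to 810 reads in WT cells and 591 to 726 in TDG-KO cells, and CpG22 and CpG23 had 221 to 301 and 165 to 201. With 1 library per genotype, every test below compares these libraries and not the genotypes. PCR reads carried no molecular identifiers, so intervals and limits from a count of 0 cover counting error only.

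5fC/5caC read at most CpGs of WT cells near the level of cytosines outside CpG and reached several percent in CNS1, the promoter and around the end of exon 1 in TDG-KO cells. Over the 94 CpG cytosines the mean level was 0.300% in WT cells and 2.87% in TDG-KO cells, and the medians were 0.157% and 1.14%. A cytosine was called when the adjusted p of a two-sided Fisher's exact test was under 0.05 and the levels differed by at least 1 percentage point. By this rule, 47 of 94 cytosines were higher in TDG-KO cells (50%) and 0 were lower (0%). No CpG cytosine of WT cells reached 2%, whereas 43 did in TDG-KO cells, and 23 of these reached 5%. The highest level in WT cells was 1.67%, at CpG16 on the plus strand, and the highest in TDG-KO cells was 13.6%, at CpG27 on the plus strand. The 3 regions toward the 5′ end held most of the called cytosines, with 29 of 34 in CNS1, 6 of 8 in the promoter and 5 of 14 in exon 1. Farther into the gene the count was 6 of 18 in the amplicon of intron 1 and exon 2, 1 of 10 in the 3′ region of HSII and 0 of 10 in exon 3. With C reads at full weight every level is lower by construction, and 41 of 94 were called. Counted by CpG, 18 of 47 were higher on both strands, 11 on 1 strand and 18 on neither.

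**Figure D1:**
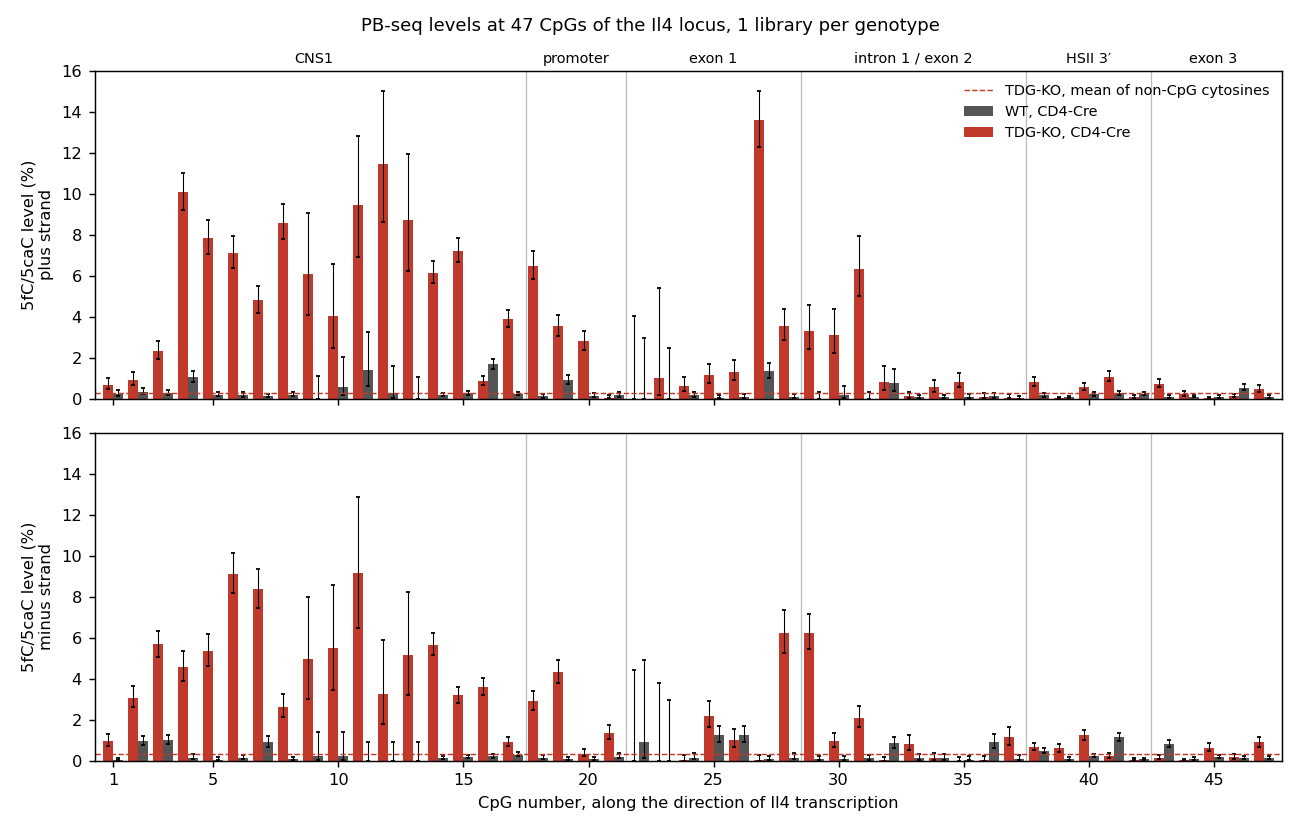
5fC/5caC level in percent (vertical axis) of each of the 47 CpGs (horizontal axis) on the plus strand (top) and minus strand (bottom) in the TDG-KO (red) and WT (grey) libraries with CD4-Cre. Bars carry 95% Wilson intervals and the dashed line is the mean of non-CpG cytosines in TDG-KO cells; the tallest bar is CpG27 on the plus strand at 13.6%.

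Cytosines outside CpG, read in the same molecules, gave the level that arises without CpG modification. Over 613 such cytosines the medians were 0.108% in WT cells and 0.132% in TDG-KO cells, beside the means of 0.315% and 0.299%. The means outside CpG were thus alike in the libraries, while those at CpGs were far apart. The 95th percentile of the non-CpG cytosines was 1.23% in WT cells and 0.990% in TDG-KO cells, so single levels near 1% lay within the range of cytosines outside CpG in either library. The Fisher rule called 13 of the 613 higher in TDG-KO cells (2.12%) and 25 lower (4.08%). The largest called increase outside CpG was 2.61 points, at position 53427454 of the minus strand in exon 3. The largest called decrease there was -3.66 points, at position 53431818 of the plus strand in intron 1, so single positions passed the rule in both directions. Of the non-CpG cytosines, 5 reached 2% in TDG-KO cells and 8 did in WT cells.

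CNS1, some 8 kilobases upstream of Il4, was the region with the most 5fC/5caC. Its 34 cytosines averaged 0.350% in WT cells and 5.33% in TDG-KO cells, a difference of 4.98 points (95% interval 4.72 to 5.25) and a ratio of 15.2. The non-CpG cytosines of the same amplicons averaged 0.272% in both libraries. Both strands took part, with means of 5.89% on the plus strand and 4.78% on the minus strand in TDG-KO cells. Toward the ends of the region the levels were mixed. CpG1 and CpG2, chosen after their values were seen, averaged 0.805% on the plus strand and 2.03% on the minus strand of TDG-KO cells, and CpG16 and CpG17, so chosen too, stood at 0.868% and 3.89% on the plus strand and 3.59% and 0.902% on the minus strand.

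Between these ends, 13 CpGs in a row, CpG3 to CpG15, were called on both strands. CpG3 to CpG8 had a mean of 0.334% in WT cells and 6.79% in TDG-KO cells on the plus strand and of 0.393% and 5.96% on the minus strand. Single levels in TDG-KO cells ran from 2.32% to 10.1% on the plus strand and from 2.63% to 9.12% on the minus strand. The stretch is given because all of its 12 CpG cytosines rose, read on the minus strand at chr11:53440566-53440676 (mm9), with CpGs in capitals.
CpGs 3 to 8 in CNS1: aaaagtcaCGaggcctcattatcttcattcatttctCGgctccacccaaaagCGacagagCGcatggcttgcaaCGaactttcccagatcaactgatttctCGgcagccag

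CpG9 to CpG13 follow at their lower depth. Their mean rose from 0.448% to 7.94% on the plus strand and from 0.0994% to 5.61% on the minus strand. CpG12 had the largest increase of CNS1 on the plus strand, from 0.281% (1 T read of 711 reads, Wilson 95% interval 0.0496% to 1.57%) to 11.4% (44 of 726, 8.62% to 15.0%). That is a difference of 11.1 points (Newcombe interval 8.06 to 14.7, exact adjusted p = 9.23e-12). CpG11 had the largest increase on the minus strand, from 0% in WT cells, where 0 of 810 reads allowed a level of up to 0.741%, to 9.18% in TDG-KO cells (6.47% to 12.9%, exact adjusted p = 4.51e-11). The windows of CpG12 are shown on both strands (chr11:53440448-53440477, mm9) because its strands differed the most in CNS1, with the CpG in capitals.
CpG12, plus strand: gatcactttccactCGagatggcactgtgg
CpG12, minus strand: ccacagtgccatctCGagtggaaagtgatc

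In the promoter, each of the 4 CpGs was higher in TDG-KO cells on at least 1 strand. Its 8 cytosines averaged 0.234% in WT cells and 2.73% in TDG-KO cells, a difference of 2.49 points (2.33 to 2.66), against 0.334% and 0.336% at the non-CpG cytosines of the amplicon. CpG18, 345 bases upstream of the annotated start of Il4, had the largest increase on the plus strand, from 0.104% to 6.47% (difference 6.37 points, 5.72 to 7.08, exact adjusted p = 6.19e-120). CpG19, 330 bases upstream, had the largest on the minus strand, from 0.0982% to 4.33% (4.23 points, 3.70 to 4.82, exact adjusted p = 1.23e-80). CpG20 and CpG21, chosen after their values were seen, were called on opposite strands. CpG20 stood at 2.81% on the plus strand and 0.353% on the minus strand of TDG-KO cells, and CpG21 at 0.0481% and 1.36%. The promoter is also the region with the lowest BS-seq level in naïve cells, 49.6% 5mC and 5hmC on the minus strand. The window of CpG18, its most raised CpG, reads as follows on the plus strand (chr11:53432501-53432530, mm9), with the CpG in capitals.
CpG18, plus strand: gagggtgctggtgtCGccctggggaaagac

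Around the end of exon 1 and the start of intron 1, a short group of CpGs carried most of the 5fC/5caC of the transcribed part of Il4. CpG25 to CpG31 averaged 0.247% in WT cells and 4.62% in TDG-KO cells on the plus strand, where all 7 were called, and 0.436% and 2.68% on the minus strand, where 3 of 7 were. Within them CpG27 to CpG29 averaged 0.474% and 6.82% on the plus strand and 0.111% and 4.18% on the minus strand. CpG27, in the coding part of exon 1, had the largest increase of the whole locus. Its plus strand went from 1.34% in WT cells (1.02% to 1.76%) to 13.6% in TDG-KO cells (12.3% to 15.0%), a difference of 12.2 points (10.9 to 13.7, exact adjusted p = 6.65e-87). On the minus strand the same CpG stood at 0.0639% and 0.0506%, with 2 T reads among 6261 and 1 among 3955.

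The neighbouring CpG28 and CpG29 had the largest increases on the minus strand of their amplicons. CpG28, the last CpG of exon 1, went from 0.160% to 6.22% (difference 6.06 points, 5.07 to 7.20, exact adjusted p = 5.35e-45). CpG29, in intron 1, went from 0.109% to 6.26% (6.15 points, 5.33 to 7.07, exact adjusted p = 1.56e-69). Both were also called on the plus strand, so that the strand asymmetry of CpG27 was flanked on its 3′ side by CpGs that rose on both strands. CpG31 had the largest increase on the plus strand of intron 1, from 0% of 2286 reads (up to 0.262%) to 6.33% (5.02% to 7.94%, exact adjusted p = 4.43e-22). The stretch from CpG25 to CpG29 is given for this change of strand across exon 1 and intron 1, read on the minus strand at chr11:53431914-53432048 (mm9), with CpGs in capitals.
CpGs 25 to 29 in exon 1 and intron 1: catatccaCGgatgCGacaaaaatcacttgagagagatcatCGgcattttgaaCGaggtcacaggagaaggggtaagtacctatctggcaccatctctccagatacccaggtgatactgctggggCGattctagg

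The 5fC/5caC of these amplicons was uneven enough that their means hide it. Exon 1 averaged 0.393% in WT cells and 2.19% in TDG-KO cells over both strands (difference 1.80 points, 1.55 to 2.05). On its minus strand the mean rose by 0.820 points while the median was 0.160% in WT cells and 0.0506% in TDG-KO cells, a difference of -0.109 points, since CpG28 was the only called cytosine there. Weighted by reads, the minus strand of exon 1 rose by 1.32 points and the plus strand of intron 1 and exon 2 by 0.950 points, against an unweighted 1.54 points. At CpG22 and CpG23, in the 5′ UTR, no difference was detectable at this depth, which allowed levels of up to 3.61% in TDG-KO cells where no T was read. The amplicon of intron 1 and exon 2 averaged 0.208% and 1.48% (1.27 points, 1.12 to 1.42). Past CpG31 its levels dropped: CpG32 to CpG37, grouped after their values were seen, averaged 0.182% in WT cells and 0.399% in TDG-KO cells on the plus strand and 0.360% and 0.359% on the minus strand. Of these 12 cytosines only CpG37 on the minus strand was called, at 0.0908% and 1.14%. Its difference of 1.05 points exceeded the minimum for a call by less than 0.0582 points, the mean rise of non-CpG cytosines on that strand. It fell under the minimum once that level was subtracted.

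The 3′ region of HSII and exon 3 stayed near the level of cytosines outside CpG in both libraries. In the 3′ region of HSII, CpG38 to CpG42 averaged 0.189% in WT cells and 0.507% in TDG-KO cells on the plus strand and 0.405% and 0.556% on the minus strand. Non-CpG cytosines of that amplicon averaged 0.391% and 0.373%. The difference over both strands was 0.234 points (0.173 to 0.296), and 1 of 10 cytosines was called. That cytosine was CpG40 on the minus strand, at 0.233% and 1.24%, whose difference of 1.00 points (0.760 to 1.28, exact adjusted p = 8.78e-18) sat at the minimum for a call and fell to 0.944 points once the non-CpG level was subtracted. In exon 3, CpG43 to CpG47 averaged 0.176% and 0.316% on the plus strand and 0.272% and 0.375% on the minus strand, with 0 of 10 called. Non-CpG cytosines of the exon 3 amplicon averaged 0.395% in WT cells and 0.538% in TDG-KO cells, so they lay above its CpGs and differed by as much. Each cytosine of these regions had 12431 reads or more in both libraries, where a count of 0 allows a level of at most 0.0481%.

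Levels lay below those of WT cells at 18 of 94 cytosines and above them at 74, and none fell by as much as 1 point. Without the minimum of 1 point, 73 cytosines passed the adjusted p, 66 of them higher and 7 lower in TDG-KO cells. The largest of these shortfalls, chosen after the values were seen, were CpG41 on the minus strand, at 1.14% in WT cells and 0.221% in TDG-KO cells, and CpG36 on the minus strand, at 0.904% and 0.0425%. CpG32 on the minus strand, at 0.861% and 0.0336%, and CpG16 on the plus strand, at 1.67% and 0.868%, came next. WT cells reached 1% at 8 CpG cytosines, against 57 of 613 non-CpG cytosines, a like share of low levels.

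The question of whether both cytosines of a CpG carried 5fC/5caC was put to each library with Fisher's exact test between strands, again with an adjusted p under 0.05 and a difference of at least 1 point. The study's weight on C reads corrects for redundant reads that come from the other strand. C counts of both strands may thus share reads, while the test takes them as independent. In TDG-KO cells the strands of 21 of 47 CpGs differed (44.7%), 11 with more on the plus strand and 10 with more on the minus strand. In WT cells 4 of 47 differed (8.51%), CpG16, CpG25, CpG26 and CpG27 (named after their values were seen). At a minimum of 2 points 0 did, as had to be, since no CpG cytosine of WT cells reached 2%. With 8 of 94 at 1% or more, WT levels also left little room for gaps of 1 point, so the shares of the libraries are not alike in reach. With no minimum difference, a setting added after the values were seen, 33 CpGs passed in TDG-KO cells and 16 in WT cells. CNS1 held 11 of the 21 CpGs, the promoter 3, exon 1 3 and the amplicon of intron 1 and exon 2 4, whereas the 3′ region of HSII and exon 3 held 0. Without the minimum, 3 of 5 CpGs in the 3′ region of HSII and 4 of 5 in exon 3 passed in TDG-KO cells, with gaps of at most 0.846 and 0.624 points. CpG27 had the widest gap, 13.5 points. In CNS1 the widest was at CpG12, 11.4% on the plus strand and 3.26% on the minus strand (exact adjusted p = 9.45e-05).

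The strand with more 5fC/5caC changed from CpG to CpG, although the mean of TDG-KO cells was higher on the plus strand, 3.27% against 2.46%. The plus strand also had the higher mean in CNS1, the promoter, exon 1 and the amplicon of intron 1 and exon 2. Within CpG3 to CpG8 the plus strand was higher at CpG4, CpG5 and CpG8 and the minus strand at CpG3, CpG6 and CpG7. CpG8, for example, stood at 8.60% on the plus strand and 2.63% on the minus strand, and CpG7 at 4.80% and 8.37%. Across the 47 CpGs of the TDG-KO library, Pearson's r between strands was 0.548 and Spearman's rho 0.635. In the WT library r was -0.122. These CpGs share a library and, within an amplicon, reads. Since no identifiers mark the molecules, the part of uneven amplification in single strand differences was not tested.

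The same locus was read after inducible TDG deletion with ERT2-Cre, where the labelled replicates 1 and 2 of each genotype are named after 1 library and were summed as its runs. 5fC/5caC rose at largely the same cytosines there and by less. In the ERT2-Cre experiment the mean over the 94 cytosines was 0.407% in WT cells and 1.59% in TDG iKO cells, a mean difference of 1.19 points, against 2.56 points with CD4-Cre. By the same rule 37 of 94 cytosines were higher in TDG iKO cells (39.4%) and 34 of them were also higher with CD4-Cre, which is 91.9% of the ERT2-Cre calls and 72.3% of the CD4-Cre calls. Across the 94 cytosines the differences had r = 0.814 and rho = 0.765, with no sample in common, although cytosines within an experiment share its libraries.

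Whether the relative rise differed between the experiments was tested at each cytosine with Zelen's exact test of equal odds ratios, with a difference of at least 1 point between the rises. It was larger with CD4-Cre at 26 of 94 cytosines (27.7%) and larger with ERT2-Cre at 4 (4.26%). Those 4, named after their values were seen, were CpG16 and CpG19 on the plus strand and CpG26 and CpG41 on the minus strand. Only CpG19 was called as a rise in either experiment. The others had differences below 0 with CD4-Cre, from WT levels above 1%: -0.807 points at CpG16, -0.262 at CpG26 and -0.918 at CpG41. Their differences with ERT2-Cre were 0.510, 0.896 and 0.212 points, each under the minimum for a call. Among the 26, CpG40 on the minus strand had 1.00 points with CD4-Cre and -0.232 points with ERT2-Cre. CpG1 on the minus strand (0.918 and -0.520 points) and CpG35 on the plus strand (0.744 and -0.342 points) were also among the 26. Named after their values were seen, they were called as a rise in neither experiment. All 30 had the same direction in odds ratio as in points. With no minimum difference the counts by points were 40 and 14, and CpG28 on the plus strand, among the 14, had the larger odds ratio with CD4-Cre. CNS1 held 18 of the 26, the promoter 4, the amplicon of intron 1 and exon 2 3 and the 3′ region of HSII 1. The mean rise of CNS1 was 4.98 points with CD4-Cre and 1.87 points with ERT2-Cre, whereas exon 1 was closer, with 1.80 and 1.42 points. The promoter had 2.49 and 1.82 points and the amplicon of intron 1 and exon 2 1.27 and 0.666 points. The gap between the experiments was thus widest at CNS1. CpG9 to CpG13 rose by 7.50 points on the plus strand with CD4-Cre and by 1.92 points with ERT2-Cre, and by 5.51 and 2.50 points on the minus strand. Of these, only CpG11 on the minus strand and CpG12 on the plus strand passed the Zelen test, and the part of their low depth in this was not tested. At CpG13 on the plus strand, named after its values were seen, no T was read in either WT library, so the test could not pass.

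Single CpGs ran in either direction. CpG12 on the plus strand showed the largest gap in favour of CD4-Cre, a rise of 11.1 points against 1.65 points (difference of the rises 9.50 points, exact adjusted p = 0.0408). The WT library held 1 T read at this cytosine, and the test no longer passed when replicate 2 of the ERT2-Cre samples was left out. Among the called cytosines, CpG19 on the plus strand showed the largest gap in favour of ERT2-Cre, a rise of 2.63 points with CD4-Cre and of 3.96 points with ERT2-Cre (-1.33 points, exact adjusted p = 0.000113). At a minimum of 2 points, with C reads at full weight or without replicate 2 this cytosine was not called. At CpG27 on the plus strand the rises were 12.2 and 6.53 points, but from WT levels of 1.34% and 0.771%, and the odds ratios did not pass the test (exact adjusted p = 0.669). CpG20 on the minus strand, chosen after its values were seen, had a wider gap of -1.89 points but its odds ratios did not pass the test (exact adjusted p = 0.753). CpG28 on the minus strand had rises of 6.06 and 5.22 points. Its odds ratios differed (exact adjusted p = 0.0328), but the gap of 0.840 points was under the minimum for a call.

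By the rule with 1 point, more cytosines differed between the cells without TDG than between the WT libraries. The low WT levels, of which 8 of 94 reached 1% with CD4-Cre, left little room for a WT gap of 1 point. TDG-KO cells were above TDG iKO cells at 34 of 94 cytosines (36.2%) and below at 2 (2.13%), CpG20 and CpG27 on the minus strand, while the WT libraries differed at 4 (4.26%) in favour of CD4-Cre and at 1 (1.06%) in favour of ERT2-Cre. The former were CpG11 and CpG16 on the plus strand and CpG25 and CpG26 on the minus strand and the latter CpG32 on the plus strand, all named after their values were seen. CpG32 had 244 reads in WT replicate 1 of ERT2-Cre and 1913 in replicate 2, whose levels differed by 5.46 points, and it was not called without replicate 1. With no minimum difference, the counts in favour of CD4-Cre and of ERT2-Cre were 46 and 18 between the cells without TDG and 14 and 40 between the WT libraries. The mean WT level was 0.300% with CD4-Cre and 0.407% with ERT2-Cre, where it was 0.546% in replicate 1 and 0.325% in replicate 2. Non-CpG cytosines of these replicates averaged 0.422% and 0.201%, so the size of the WT offset moved with the replicate. An odds ratio divides by the WT level, and the part of this offset in the Zelen calls was not tested. CNS1 held 26 of the 34 cytosines above TDG iKO cells. CpG27 also had more on the plus strand with ERT2-Cre, 7.30% against 1.57% on the minus strand of TDG iKO cells, and CpG8 had 5.87% and 0.866% there. CpG12, with the widest gap of CNS1, had 2.09% and 1.74% there, and CpG20 was turned around, with 1.84% on the plus strand and 3.02% on the minus strand. Among the 21 CpGs whose strands differed in TDG-KO cells, only CpG6 and CpG20 had more on the other strand in TDG iKO cells. CpG6 had 3.46% on the plus strand and 3.06% on the minus strand there. The rest had more on the same strand in both, some by little, such as CpG25 with 0.685% and 0.740% in TDG iKO cells. The CpGs named here were chosen after their values were seen, and gaps between strands with ERT2-Cre were not tested. The experiments differ in Cre, in when Tdg was deleted and in library, and these cannot be told apart.

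**Figure D2:**
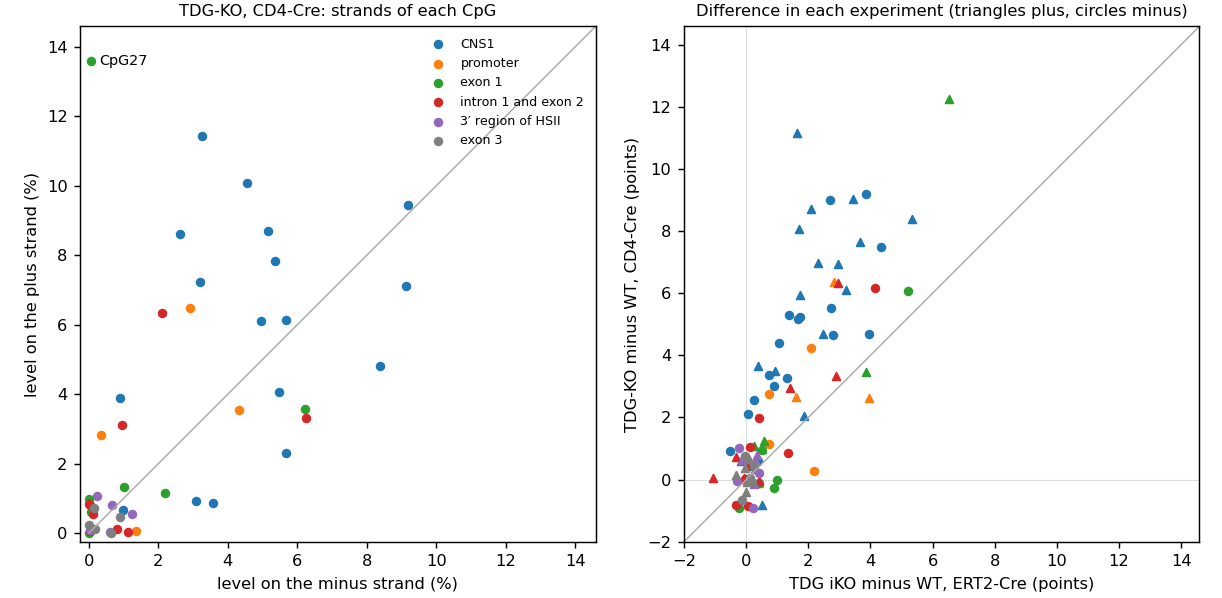
Left, 5fC/5caC level in percent of each CpG of TDG-KO cells with CD4-Cre on the minus (horizontal) and plus (vertical) strand, coloured by region; CpG27 sits at 13.6% on the plus strand and 0.0506% on the minus strand. Right, TDG iKO minus WT with ERT2-Cre (horizontal) against TDG-KO minus WT with CD4-Cre (vertical), in percentage points, for each CpG cytosine in the same colours, with the line of equal values; most CNS1 cytosines lie above the line.

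CpGs with more 5fC/5caC in TDG-KO cells tended to be those whose 5mC and 5hmC differed most between TET iTKO and WT cells in BS-seq of other samples. BS-seq reads 5mC and 5hmC together as C. Its levels were taken from naïve cells (3 libraries), WT Th2 cells of the ERT2-Cre Tdg experiment (3 labelled samples, counted as 2 libraries) and WT and TET iTKO Th2 cells (2 libraries each). All these Th2 cells were of the first cycle. BS-seq levels were taken on the minus strand only, so rises on the plus strand are set against the level of the opposite strand. CNS1 averaged 92.7% in naïve cells and 70.1% in WT Th2 cells, and 56.1% in the WT and 90.5% in the TET iTKO cells of the TET experiment. Its difference between TET iTKO and WT cells, 34.3 points, was the largest of the 6 regions. It was followed by the promoter with 30.0 points, exon 1 with 24.8, the amplicon of intron 1 and exon 2 with 18.9, the 3′ region of HSII with 10.6 and exon 3 with -0.463. The rise in 5fC/5caC over both strands, taken over all CpGs, had the same order of regions. At 500 reads, which leaves out CpG22 and CpG23, exon 1 rose by 1.33 points on the minus strand and 3.70 on the plus strand. The promoter rose by 2.10 and 2.89 points there, so exon 1 came slightly above it.

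CpG by CpG, r of the TET difference on the minus strand with the rise in 5fC/5caC was 0.765 for plus-strand rises. For minus-strand rises it was 0.756 (47 CpGs). The loss from naïve to WT Th2 cells gave 0.579 and 0.625 (46 CpGs), the level in WT Th2 cells -0.404 and -0.464, and the level in naïve cells 0.0199 and -0.0171. These 8 values are descriptions across CpGs that share libraries and reads. In bins chosen after the levels were seen, the 19 CpGs with a TET difference of 30 points or more held 36 of the 47 called cytosines, with a median rise of 5.20 points. The 13 CpGs between 10 and 30 points held 9, with a median rise of 0.605 points, and the 15 CpGs under 10 points held 2, with 0.235 points.

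Single CpGs show the relation and its exceptions. CpG29 had the largest TET difference, 59.6 points, with rises in 5fC/5caC of 3.32 points on the plus strand and 6.15 points on the minus strand. CpG27 had a TET difference of 52.7 points, read on the minus strand. Its 5fC/5caC differences were 12.2 points on the plus strand and -0.0133 points on the minus strand. The 3′ region of HSII lost 21.8 points from naïve to WT Th2 cells of the Tdg experiment, close to the 22.6 points of CNS1. Yet its 5fC/5caC rose by 0.318 points on the plus strand and 0.151 points on the minus strand, where CNS1 rose by 5.47 and 4.50 points. Exon 3, which stayed at 95.9% in naïve and 95.8% in WT Th2 cells, had neither. The like losses of CNS1 and the 3′ region of HSII depended on the WT cells used. From 92.7% and 90.7% in naïve cells, they stood at 56.1% and 64.8% in WT cells of the TET experiment, a larger loss at CNS1. In 3 further Th2 libraries with no cycle in their titles they stood at 79.0% and 73.1%, a smaller loss at CNS1.

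**Figure D3:**
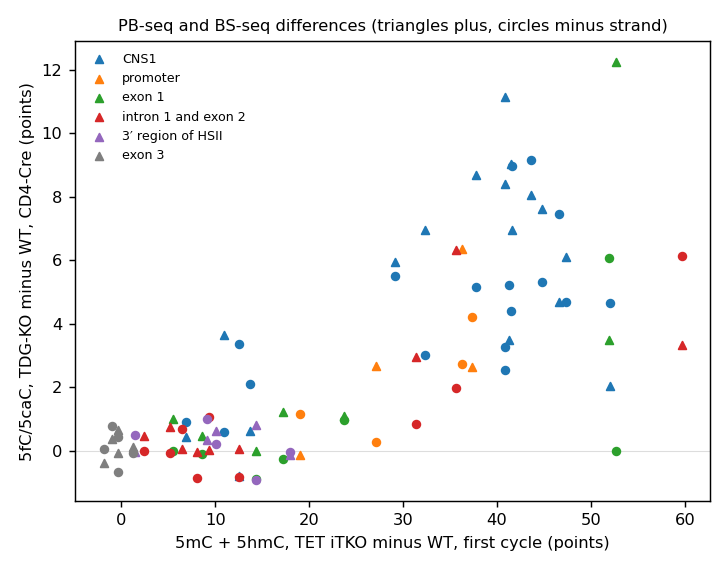
Difference in BS-seq level (5mC and 5hmC) between TET iTKO and WT Th2 cells of the first cycle, in points (horizontal), against the difference in 5fC/5caC between TDG-KO and WT cells with CD4-Cre, in points (vertical), for the 47 CpGs on the plus (triangles) and minus (circles) strand, coloured by region. BS-seq levels are of the minus strand for both symbols. CpGs at 30 points or more hold 36 of the 47 called cytosines.

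The bases around the called cytosines were tallied on the strand of each cytosine. A G after the CpG went with the lowest rises: 5 of 25 such cytosines were called, with a median rise of 0.430 points. The count was 20 of 31 before A, 11 of 16 before C and 11 of 22 before T, with median rises of 3.26, 3.35 and 1.04 points. At CpG27 the plus strand, which rose, has A after the CpG and the minus strand, which did not, has G. CpG19 on the minus strand, also before G, rose by 4.23 points, so the tally has exceptions. The base before the CpG varied less, with 9 of 22 called after A, 12 of 25 after C, 8 of 16 after G and 18 of 31 after T. These bases are distributed unevenly over regions, and their own part in the levels was not tested. The letters GATA, searched on both strands in the 30 bases around each CpG, were found at 5 of 47 CpGs, of whose 10 cytosines 7 were called, against 40 of the other 84. Of all 1587 windows of 30 bases in the amplicons, 207 held them.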

How the data were processed

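The authors mapped PB-seq and BS-seq reads to mm9 with BSMAP, per the labels, and deposited for each cytosine the count of C reads and the count of C or T reads, without normalization. Amplicons were placed on NCBIM37 (mm9) by the primers of the study and CpGs were numbered in the direction of Il4 transcription. Levels were computed per cytosine and strand at 100 or more reads. Two-sided Fisher's exact tests used T reads and C reads multiplied by 0.5 and rounded, with Benjamini-Hochberg adjustment over the 94 CpG cytosines, the 613 non-CpG cytosines or the 47 CpGs. Differences between experiments used Zelen's exact test, adjusted over the 94 cytosines. Intervals are 95% Wilson for levels, Newcombe for differences and summed binomial variances for region means, and a count of 0 allows 3 counts. Region means weight CpGs equally and were not tested.

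The text names the called CpG with the largest increase and decrease of each region and strand, the CpGs and ranges that the study numbers, and the largest gaps between CD4-Cre and ERT2-Cre; others are said to have been chosen after their values were seen. The members, lists and ranges were chosen with earlier results of these data known. Alternatives were other coverage minimums, C reads at full weight, no minimum or 2 points, adjustment within a strand and the non-CpG level subtracted. Others were strands summed, read-weighted means, medians, Spearman's rho, BS-seq relations without the CpGs of exon 3 and each ERT2-Cre replicate left out. Strands with no minimum were added after the values were seen. Python 3.11.15, numpy 2.4.6, scipy 1.17.1 and matplotlib 3.10.9 were used.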

Additional observations from a re-analysis of the deposited data

Results flagged for a closer look

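The same contrast, cells without TDG against WT cells, gave a different ratio with CD4-Cre than with ERT2-Cre by Zelen's exact test at 26 cytosines where the difference in points was larger with CD4-Cre and at 4 where it was larger with ERT2-Cre. At 3 of these 4 (CpG16 on the plus strand, CpG26 and CpG41 on the minus strand) the value was below 0 with CD4-Cre and under 1 point with ERT2-Cre, so neither experiment called a rise there. Among the 26, neither called one at CpG1 on the minus strand (0.918 points with CD4-Cre and -0.520 with ERT2-Cre). The same held at CpG35 on the plus strand (0.744 and -0.342 points). Of the cytosines named for the largest rise of a region and strand, this difference between the experiments flagged 6, and all 6 rose more with CD4-Cre, a direction favoured by their choice for a large rise with CD4-Cre. CpG19 on the plus strand was flagged too, as the called cytosine with the largest gap in favour of ERT2-Cre. The gap between the experiments was 9.50 points at CpG12 on the plus strand and 5.33 points at CpG11 on the minus strand, both in CNS1. In the promoter it was 3.53 points at CpG18 on the plus strand, 2.14 points at CpG19 on the minus strand and -1.33 points at CpG19 on the plus strand, so the strands of CpG19 went opposite ways. It was 2.00 points at CpG29 on the minus strand of intron 1 and 1.23 points at CpG40 on the minus strand of the 3′ region of HSII, where ERT2-Cre had -0.232 points. No cause of these differences was tested.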

How the results depend on the processing

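Depth in the CD4-Cre libraries was under 1000 reads only at CpG9 to CpG13, CpG22 and CpG23, CpG32 on the plus strand had 244 and 248 reads in replicate 1 of the ERT2-Cre WT and TDG iKO samples, and with 1 library per genotype no setting can show the variation between mice. No paired analysis was possible because the CD4-Cre groups share only 1 replicate number. Of 255 values of 47 results under other settings, 195 kept their direction and call or stayed within their interval or 1.5 times of a count, 52 moved, 7 single CpG values no longer passed and 1 changed sign. The count of cytosines higher in TDG-KO cells stayed between 37 and 66 of those tested per strand and was 25 of 47 CpGs with strands summed, where fewer units are tested; 7 were lower with no minimum difference. With C reads at full weight, which lowers each level by construction, differences on the minus and plus strand were 2.32 and 2.85 points in CNS1, 1.07 and 1.48 in the promoter, 0.425 and 1.47 in exon 1, 0.512 and 0.790 in intron 1 and exon 2 and, on the plus strand, 0.160 in the 3′ region of HSII. Read-weighted differences were 3.78 and 4.62 points in CNS1, 1.32 and 3.77 in exon 1 and, on the plus strand, 0.950 in intron 1 and exon 2. Medians gave 5.89 points on the plus strand of CNS1, -0.109 (a change of sign) and 1.06 in exon 1, 0.687 and 0.739 in intron 1 and exon 2, and 0.368 on the minus strand of the 3′ region of HSII. At 500 reads, which leaves out CpG22 and CpG23, exon 1 had 1.33 and 3.70 points. With the non-CpG level subtracted, the plus strand of the 3′ region of HSII had 0.416 points and that of exon 3 0.239. Non-CpG medians were 0.116% and 0.135% on the plus and minus strand of TDG-KO cells and 0.109% and 0.108% of WT cells, and the plus strand mean of WT cells was 0.328% at 500 reads.

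The 4 strand differences of WT cells became 0 at 2 points, a level that no CpG cytosine of WT cells reached, or with C at full weight. With no minimum, a setting added after the values were seen, 33 CpGs of TDG-KO cells and 16 of WT cells differed. Rises larger with CD4-Cre numbered 40 and with ERT2-Cre 14 with no minimum, and the latter 0 at 2 points or with C at full weight. TDG iKO cells above TDG-KO cells numbered 18 with no minimum and 1 at 2 points or with C at full weight. Between the WT libraries, CD4-Cre was above at 14 cytosines and ERT2-Cre at 40 with no minimum, and both at 0 at 2 points or with C at full weight. Leaving out either ERT2-Cre replicate gave a range of 2 to 4 for the former and of 0 to 1 for the latter. Spearman's rho with the naïve level was -0.181 on the plus strand and -0.270 on the minus strand, and with the WT Th2 level -0.512 on the plus strand. CpG40 on the minus strand was not called at 2 points, with C at full weight (0.505 points) or after subtraction of the non-CpG level, and CpG12 and CpG19 on the plus strand lost their Zelen call without replicate 2 (9.48 and -0.812 points), CpG19 also at 2 points and with C at full weight (-0.684). Beyond the constructions named, the cause was not tested.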
